A study of Homo sapiens with 12 samples.

Results

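The genes described here encode the proteins of the mitochondrial ribosome. They were taken as every gene of the count table whose symbol is MRPL or MRPS followed by a number and, in the 3 MRPS18 paralogs, a letter. This gave 75 of 20771 genes, of which 47 carry large-subunit names (MRPL) and 28 small-subunit names (MRPS), and 74 passed the filter on low counts. Subunits with other symbols were followed as a separate list, and genes of the family outside the table were not analysed here.

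RNA of 2 Ewing sarcoma cell lines, EW8 and TC71, was sequenced in 12 libraries, with 3 replicates in each of 4 groups. Both lines (EW8-RRM1-KO and TC71-RRM1-KO) had lost their own RRM1, the large subunit of ribonucleotide reductase, to CRISPR/Cas9 and lived on a codon-optimized RRM1 transgene that is made only while doxycycline is present. The groups labelled 0 h had doxycycline in the medium, and those labelled 48 h had been without it for 48 h. All groups therefore shared the deletion and the transgene, and the knockout lines had been derived from single cells. Doxycycline is also a known inhibitor of mitochondrial translation, so in every 48 h against 0 h comparison the loss of RRM1 and the withdrawal of doxycycline cannot be told apart. In bulk RNA, fewer cells with a transcript and less of it in each cell cannot be told apart either. The labels do not say whether replicates came from separate cultures, so p-values measure the spread between these libraries.

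Library totals lay between 18468485 and 35698991 counts, no library stood in for another (replicates differed by a chi-square of 2.05 to 9.48 per gene), and 72 of the 75 genes had at least 100 counts in every library. All 9 Ewing sarcoma markers, among them CD99, NKX2-2 and NR0B1, had 118 counts or more in each library, whereas PTPRC of blood cells and CDH5 of endothelium stayed at 6 counts or fewer. EPCAM of epithelium reached 43 counts, and of the stromal genes DCN had 236 to 945, while LUM had 76 to 149 in EW8 and 4 or fewer in TC71. DCN was higher at 48 h in both lines (log2 fold change 0.67, adjusted p = 7.7e-10 in EW8, and 0.69, adjusted p = 1.5e-10 in TC71), LUM in EW8 (0.49, adjusted p = 0.0018) and EPCAM in TC71 (0.67, adjusted p = 0.035). Their part in the results was not tested. Counts on RRM1 itself ran from 166 to 317 in EW8 at 0 h, from 1201 to 1514 in EW8 at 48 h, from 316 to 422 in TC71 at 0 h and from 674 to 778 in TC71 at 48 h. A transcript edited by Cas9 can still be counted and the recoded transgene may not be, so these counts do not check the labels.

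The mitochondrial ribosome makes only the few proteins encoded in mitochondrial DNA, which are core subunits of the respiratory chain and ATP synthase. Its ribosomal RNAs come from mitochondrial DNA, but all of its proteins come from nuclear genes, are made in the cytosol and are imported. Many have a counterpart in the bacterial ribosome, and others occur only in mitochondria. Names follow history rather than structure: the products of MRPS30 and MRPS18A sit in the large subunit, and that of MRPS36 is better known as a part of the 2-oxoglutarate dehydrogenase complex.

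The 5′ ends of 66 of the 75 genes were found in the RefSeq promoter table of GRCh38.p14. Each window was searched on both strands, from 250 bases before the start to the first 50 transcribed, for letters that NRF1 (CGCATGCGC), ETS factors including GABP (CCGGAAGT), E-box factors (CACGTG), YY1 (AAGATGGCG) and NF-Y (CCAAT) are known to bind. None of these motifs contains another, but the NRF1 letters can overlap themselves on opposite strands. The YY1 letters were in 13 of 66 windows (19.7%), against 3.78% of the 10921 windows of genes tested. The ETS letters were in 11 (16.7%, against 8.52%), the NRF1 letters in 3 (4.55%, against 3.75%), the E-box in 5 (7.58%, against 10.0%) and CCAAT in 19 (28.8%, against 36.6%), while 30 windows held none of them. Of the 12 tested genes with the YY1 letters, 9 had them within the first 50 transcribed bases. Those letters contain ATG, which is also the start codon, and a match is a description of the sequence only.

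The windows that follow belong to genes whose changes are described next, and are shown as examples with CCAAT, the ETS letters or the YY1 letters; none of them holds the NRF1 letters or the E-box. MRPS27, which carries CCAAT, and MRPL3, which carries the ETS letters, fell in both lines. MRPS10 also fell in both lines (log2 fold change −0.45 ± 0.05 in EW8 and −0.23 ± 0.05 in TC71, SE) and carries the YY1 letters downstream of the start, as do MRPS30 and MRPS18A, which were higher in EW8 at 48 h. Each runs 5′ to 3′ on the strand of the gene over 280 bases, of which the last 30 are transcribed, and capitals mark the motif letters as read on that strand (CCAAT on the other strand reads ATTGG).
MRPS27 (chr5:72320211-72320490, − strand): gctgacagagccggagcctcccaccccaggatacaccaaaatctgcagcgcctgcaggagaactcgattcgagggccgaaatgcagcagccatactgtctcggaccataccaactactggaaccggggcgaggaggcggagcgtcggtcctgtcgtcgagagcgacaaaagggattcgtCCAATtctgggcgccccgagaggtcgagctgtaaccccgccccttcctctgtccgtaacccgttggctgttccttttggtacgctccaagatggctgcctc
MRPL3 (chr3:131502942-131503221, − strand): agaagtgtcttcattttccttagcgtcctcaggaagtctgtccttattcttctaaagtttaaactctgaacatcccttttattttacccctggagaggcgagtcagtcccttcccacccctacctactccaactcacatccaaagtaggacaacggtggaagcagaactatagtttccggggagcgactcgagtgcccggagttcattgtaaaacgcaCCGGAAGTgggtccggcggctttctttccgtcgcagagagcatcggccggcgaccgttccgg
MRPS10 (chr6:42217832-42218111, − strand): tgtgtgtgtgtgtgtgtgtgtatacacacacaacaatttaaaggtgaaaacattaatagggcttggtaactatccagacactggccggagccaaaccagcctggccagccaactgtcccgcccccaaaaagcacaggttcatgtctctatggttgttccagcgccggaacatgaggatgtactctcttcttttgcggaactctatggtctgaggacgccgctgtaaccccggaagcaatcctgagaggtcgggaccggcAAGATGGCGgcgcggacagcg
MRPS30 (chr5:44808697-44808976, + strand): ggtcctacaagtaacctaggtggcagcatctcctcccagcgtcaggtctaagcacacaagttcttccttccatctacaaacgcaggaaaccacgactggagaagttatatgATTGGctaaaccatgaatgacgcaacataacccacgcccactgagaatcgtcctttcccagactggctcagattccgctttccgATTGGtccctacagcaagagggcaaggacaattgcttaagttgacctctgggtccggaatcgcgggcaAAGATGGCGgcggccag
MRPS18A (chr6:43687762-43688041, − strand): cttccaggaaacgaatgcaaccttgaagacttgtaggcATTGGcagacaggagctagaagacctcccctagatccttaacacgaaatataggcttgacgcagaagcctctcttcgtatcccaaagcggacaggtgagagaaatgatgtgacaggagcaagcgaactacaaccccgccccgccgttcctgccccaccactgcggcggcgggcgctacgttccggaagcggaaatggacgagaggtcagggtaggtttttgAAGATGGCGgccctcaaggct

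Levels were compared between genes as CPM (counts relative to the TMM-scaled library total) per kilobase of the canonical transcript, averaged over the 12 libraries. The median over the 75 genes was 38.6 CPM per kilobase (quartiles 20.3 and 59.4), against 5.84 over 15991 tested genes with a known length. MRPL13 was highest at 184, followed by MRPL37 at 158, MRPL20 at 142, MRPL3 at 132 and MRPS7 at 122. The lowest were MRPS24 at 0.417, MRPL38 at 2.66, MRPL53 at 5.61, MRPS17 at 6.14 and MRPS33 at 6.56. With the longest transcript in place of the canonical one, the median was 29.3. Genes with a counterpart in the bacterial ribosome (44) had a median of 48.0 and those found only in mitochondria (31) a median of 34.9, a grouping made after the values were seen.

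**Figure D1:**
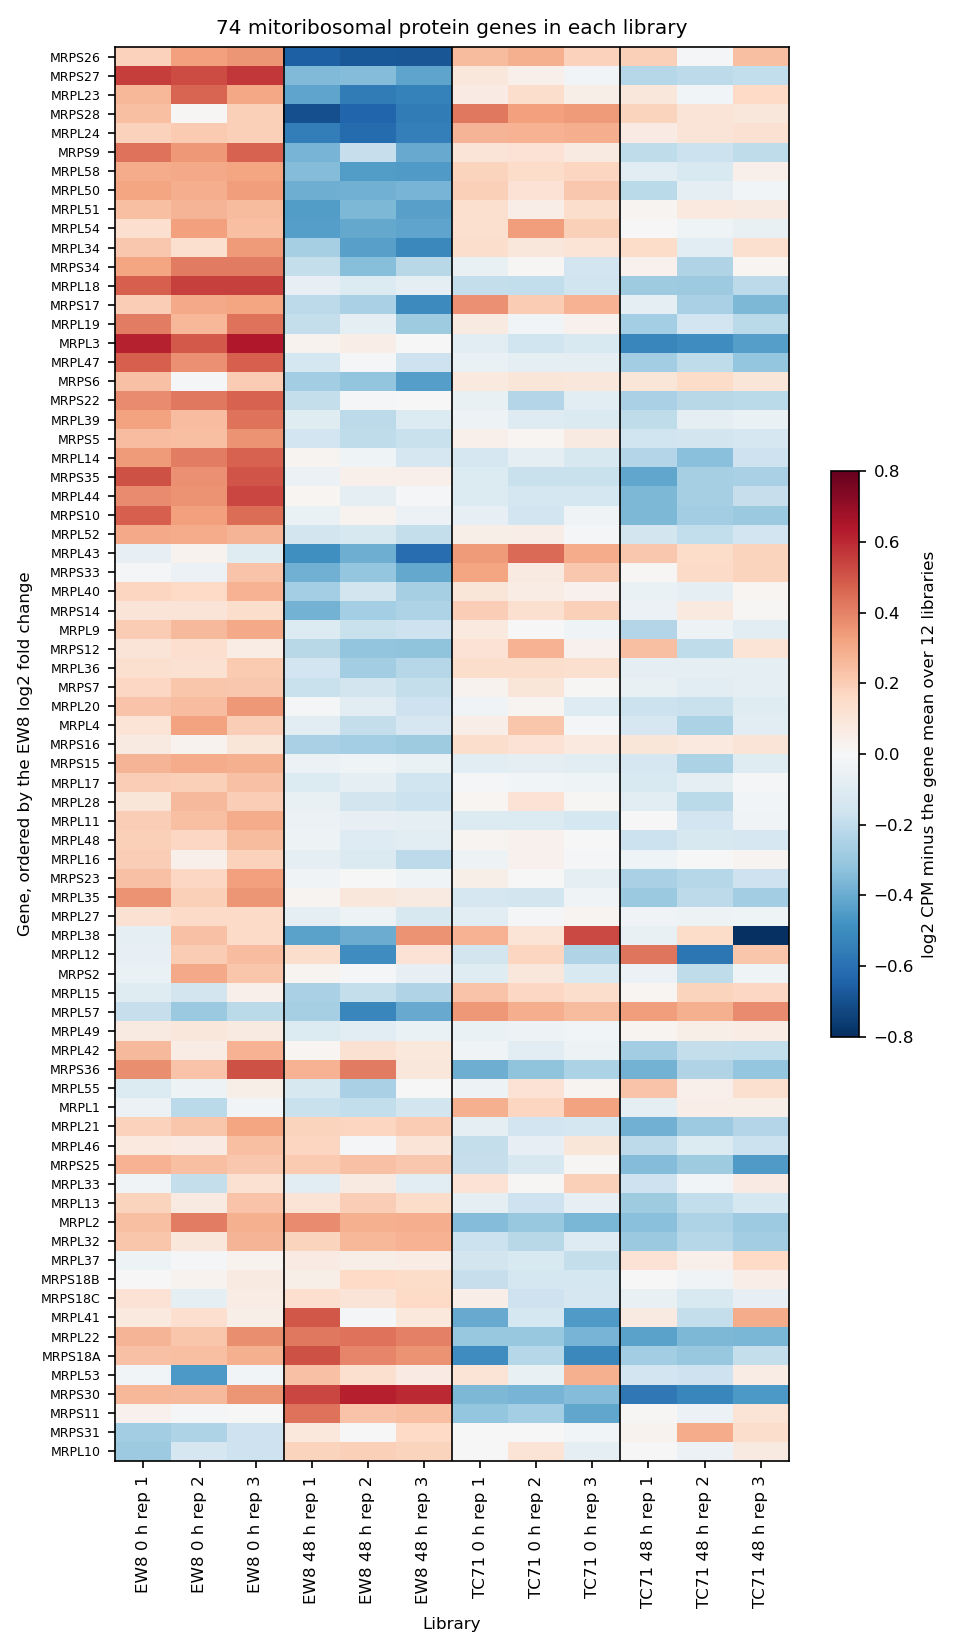
Each row is 1 of the 74 tested genes and each column 1 of the 12 libraries; colour is log2 CPM minus the mean of that gene over all libraries, with the scale ending at 0.8 in both directions. Most rows change from red in the EW8 0 h libraries to blue or white at 48 h, the TC71 columns change less, and MRPS30, MRPS11, MRPS31 and MRPL10 at the bottom run the other way in EW8.

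In EW8, most mitoribosomal protein genes fell after 48 h without doxycycline. Of the 74 tested, 51 were called lower and 6 higher at an adjusted p below 0.05 in edgeR's quasi-likelihood test, and 17 were not called. Over all 16515 genes tested, 31.6% were called lower and 37.0% higher. The changes were small: the median log2 fold change was −0.33, against 0.03 over all genes, the range ran from −0.96 to 0.38, and no member passed a fold of 2 although 17.2% of all genes did. TMM factors were 0.919 to 0.935 in EW8 at 0 h and 1.002 to 1.019 at 48 h. On the scale of total counts alone, which moved the median of all genes to 0.16, the split was 45 lower and 13 higher with a median of −0.21. The shares of all genes called were counted with TMM only. In 49 of the 75 genes all 48 h libraries lay below all 0 h libraries, and in 8 above. Such separation was not counted over all genes, so these numbers have no background share.

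Genes of both subunits fell. Of the large-subunit names 32 of 47 were called lower and 2 higher (median log2 fold change −0.31), and of the small-subunit names 19 of 27 lower and 4 higher (median −0.38). Genes with a bacterial counterpart (31 of 43 lower, median −0.34) and those found only in mitochondria (20 of 31 lower, median −0.28) also had similar medians. None of these pairs was tested against each other. Across the 74 genes the EW8 change had a Pearson correlation of −0.19 with mean level, 0.07 with transcript length and −0.01 with GC content. For the TC71 change they were 0.21, −0.14 and 0.27. These values share libraries, depth and sequence and are given as a description.

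The deepest fall was that of MRPS26, a small-subunit protein found only in mitochondria. Its CPM was 57.4, 63.5 and 64.6 in EW8 at 0 h, then 32.1, 31.6 and 31.4 at 48 h (log2 change −0.96 ± 0.06, SE, adjusted p = 1.3e-15). The 48 h libraries lay close together, far below the lowest 0 h library. MRPS27, a small-subunit protein with pentatricopeptide repeats that bind RNA, was at 174, 171 and 175 CPM and then at 92.7, 93.4 and 88.7, a log2 fold change of −0.92 ± 0.04 (adjusted p = 1.9e-19). MRPL23 and MRPL24, both of which have bacterial relatives at the exit of the peptide tunnel, came next among large-subunit genes. MRPL23 went from 39.7, 45.6 and 41.0 CPM to 24.6, 22.4 and 22.7 (log2 fold change −0.85 ± 0.07, adjusted p = 1.3e-13). MRPL24 went from 66.0, 67.1 and 66.0 CPM to 39.5, 37.8 and 39.7 (−0.77 ± 0.05, adjusted p = 1.2e-15). The groups of these genes did not overlap.

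MRPS28, which also shares 35.8% of its exon bases with another annotated gene on its strand, was at 24.9, 21.3 and 24.0 CPM at 0 h and 12.9, 13.6 and 14.3 at 48 h (log2 fold change −0.79 ± 0.07, adjusted p = 2.3e-11). Abundant members moved as well. MRPL3, which lies close to the peptidyl transferase centre, went from 334, 305 and 339 CPM to 222, 226 and 218, a log2 fold change of −0.56 ± 0.04 (adjusted p = 4.9e-14). MRPL18, a protein of the central protuberance, went from 144, 150 and 151 CPM to 98.7, 95.6 and 98.3 (−0.61 ± 0.04, adjusted p = 1.7e-14). In both genes the 48 h libraries lay below every 0 h library. MRPL13, the member with the highest level per length, was by contrast at 260, 241 and 270 CPM and then at 248, 263 and 255, groups that overlap, and was not called (adjusted p = 0.82).

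The 6 genes called higher in EW8 were MRPL10, MRPS31, MRPS11, MRPS30, MRPS18A and MRPL22. MRPL10, which anchors the stalk where translation factors dock, rose from 68.3, 76.2 and 74.4 CPM to 94.4, 95.3 and 94.4 (log2 fold change 0.38 ± 0.05, adjusted p = 6.7e-08). MRPS30 rose from 65.7, 65.4 and 69.6 CPM to 79.2, 83.8 and 82.6 (0.29 ± 0.05, adjusted p = 2.9e-06). MRPS31, a small-subunit protein found only in mitochondria, rose from 23.7, 24.1 and 25.5 CPM to 30.4, 28.7 and 32.0 (0.31 ± 0.07, adjusted p = 0.00014). In each of these genes every 48 h library was above every 0 h library. MRPS11, a protein of the small-subunit platform, was at 52.2, 50.8 and 51.1 CPM and then at 69.0, 59.8 and 60.3 (0.29 ± 0.06, adjusted p = 3.2e-05). The calls of MRPS18A (log2 fold change 0.17 ± 0.07, adjusted p = 0.042) and of MRPL22 (0.12 ± 0.06, adjusted p = 0.046) lay near the threshold. That of MRPS18A was lost without any 1 of the EW8 0 h libraries, replicates 1 or 2 of EW8 at 48 h or replicate 1 of TC71 at 0 h (adjusted p from 0.051 to 0.21), in DESeq2's Wald test (adjusted p = 0.086), with DESeq2's size factors, upper-quartile factors or either other filter on low counts, and with each line fitted alone (adjusted p from 0.053 to 0.12). That of MRPL22 was lost without any 1 library other than replicate 3 of EW8 at 0 h (adjusted p from 0.054 to 0.37), and under the same other settings as for MRPS18A (adjusted p from 0.051 to 0.15). With the replicate number as a block both calls were lost as well (adjusted p = 0.057 for each).

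**Figure D2:**
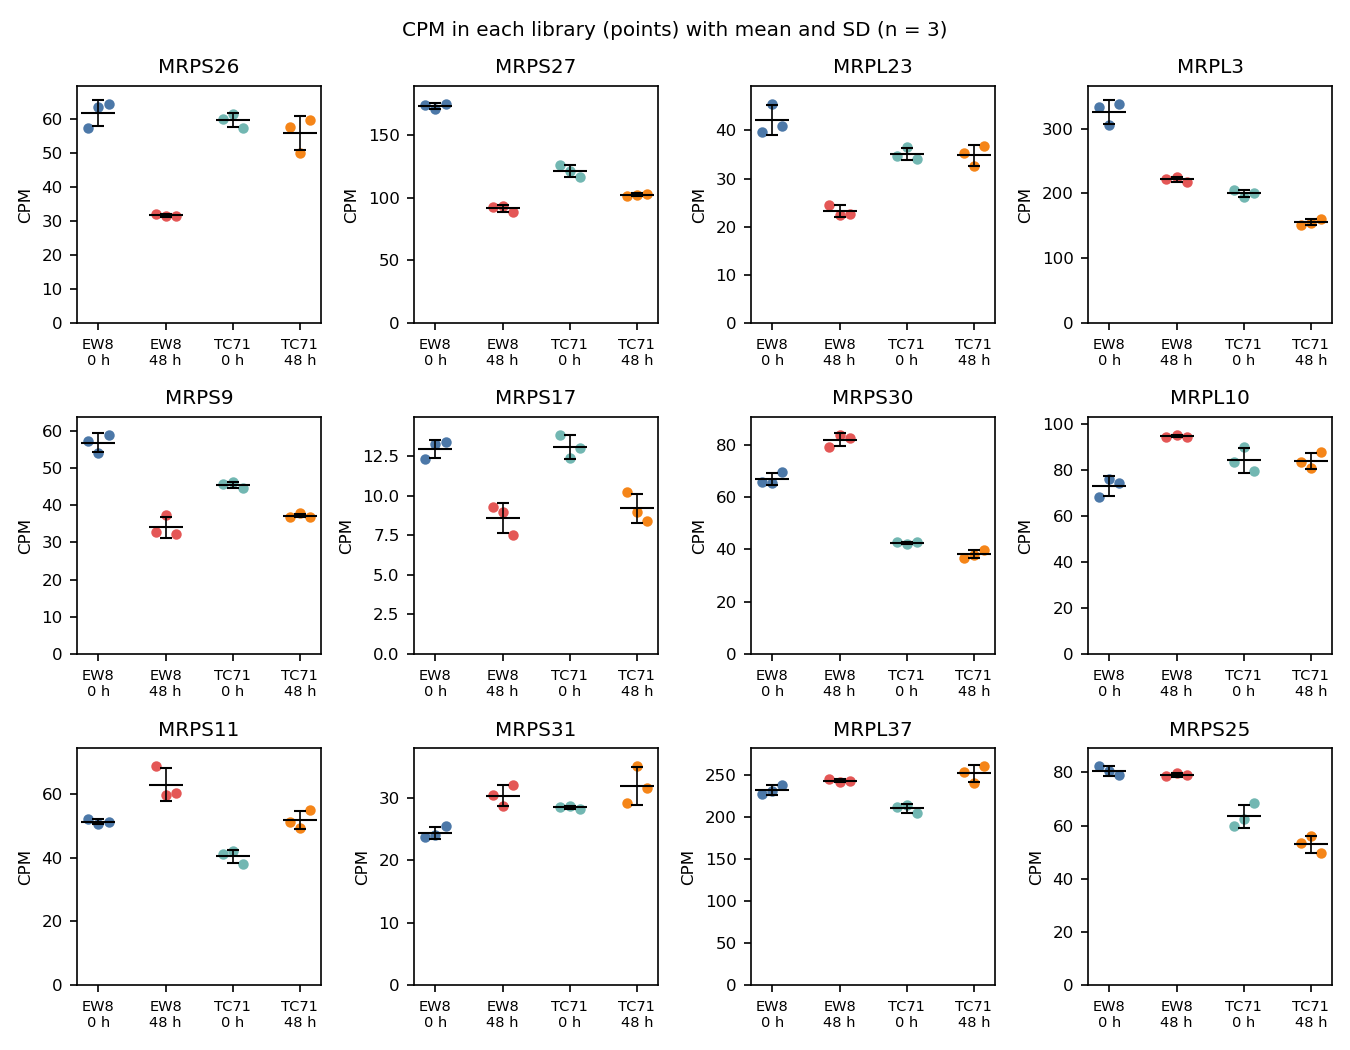
CPM of 12 members in each library, with points for the 3 replicates of a group, a horizontal bar for the mean and whiskers for the SD; every axis starts at 0. MRPS26, MRPS27 and MRPL23 fall steeply in EW8, MRPS17, MRPL3 and MRPS9 fall in both lines, MRPS11 rises in both, and MRPS30 rises in EW8 while its 48 h libraries in TC71 lie below those at 0 h.

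In TC71 the same direction was seen in fewer genes and with smaller changes. There, 31 of 74 were called lower and 5 higher, and 38 were not called. Over all genes tested, 19.2% were called lower and 22.9% higher. The median log2 fold change was −0.11, against 0.00 over all genes, the range ran from −0.54 to 0.41, and no member passed a fold of 2, whereas 4.12% of all genes did. With total counts alone the split was 21 lower and 8 higher with a median of −0.06, whereas the shares of all genes given here are those with TMM. All 48 h libraries lay below all 0 h libraries in 36 of the 75 genes and above them in 5, again without a count over all genes. By name, 19 of 47 large-subunit and 12 of 27 small-subunit genes were called lower.

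MRPS17, whose bacterial relative binds small-subunit RNA early in assembly, had the largest called fall in TC71. Its CPM was 13.9, 12.4 and 13.0 at 0 h, then 10.2, 8.95 and 8.38 at 48 h (log2 change −0.52 ± 0.09, adjusted p = 1.9e-05), and in EW8 it was −0.60 ± 0.10 (adjusted p = 1.9e-06). This gene shares 22.4% of its exon bases with another annotated gene on its strand. MRPL3 followed, from 205, 195 and 200 CPM to 152, 154 and 160 (log2 fold change −0.36 ± 0.04, adjusted p = 1.1e-08). MRPS9, whose bacterial relative touches the tRNA that holds the growing chain, went from 45.6, 46.1 and 44.7 CPM to 36.9, 37.8 and 37.0 (−0.29 ± 0.06, adjusted p = 7.8e-05). MRPL50, found only in mitochondria, was at 46.2, 43.99 and 47.0 CPM and then at 34.8, 38.5 and 39.9 (−0.28 ± 0.05, adjusted p = 0.00011). These groups did not overlap. MRPS25 had a log2 fold change of −0.26 ± 0.05 (adjusted p = 0.00012) in TC71, whereas in EW8 it was −0.03 ± 0.05 and was not called (adjusted p = 0.66).

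The genes called higher in TC71 were MRPL41, MRPS11, MRPL37, MRPS31 and MRPS18B. MRPS11 rose from 41.1, 42.2 and 38.2 CPM to 51.4, 49.5 and 55.1 (log2 fold change 0.36 ± 0.06, adjusted p = 4.8e-06). MRPL37, among the most abundant members and found only in mitochondria, rose from 212, 215 and 205 CPM to 254, 241 and 262 (0.26 ± 0.04, adjusted p = 1.5e-06). In both, every 48 h library lay above every 0 h library. MRPL41 is less firm: its libraries, 16.9, 20.3 and 16.3 CPM at 0 h and 23.5, 19.6 and 27.4 at 48 h, overlap, and its call (0.41 ± 0.15, adjusted p = 0.049) was lost without any 1 of the EW8 0 h libraries, replicate 3 of EW8 at 48 h, or replicate 1 or 3 of TC71 at 0 h or 48 h (adjusted p from 0.056 to 0.15), and with upper-quartile factors (adjusted p = 0.062) or no filter on low counts (adjusted p = 0.066). A replicate block ended the MRPL41 call too (adjusted p = 0.066). MRPS31 (0.17 ± 0.06, adjusted p = 0.036) lost its call without replicate 1 or 3 of EW8 at 0 h, any 1 of the TC71 0 h libraries, or replicate 2 or 3 of TC71 at 48 h (adjusted p from 0.056 to 0.29), in DESeq2's Wald test (adjusted p = 0.061) and with upper-quartile factors (adjusted p = 0.079). The count of 5 became 3 without replicate 1 or 3 of EW8 or of TC71 at 0 h, or replicate 3 of TC71 at 48 h.

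Taking both lines, 27 genes (36.5%) were called lower in each, against 14.3% of all genes tested. A further 24 (32.4%, against 15.7%) were lower in EW8 and not called in TC71, and 3 (MRPL1, MRPL21 and MRPS25; 4.05%, against 3.72%) were lower in TC71 and not called in EW8, a share near that of all genes. MRPS11 and MRPS31 were called higher in each (2.70%, against 17.6%), and 11 were called in neither (14.9%, against 24.0%). MRPL10, MRPL22 and MRPS18A were higher in EW8 and not called in TC71 (4.05%, against 18.2%), and MRPL37, MRPL41 and MRPS18B were higher in TC71 and not called in EW8 (4.05%, against 3.69%). MRPS30 was higher in EW8 and lower in TC71 (1.35%, against 1.22%), and no member was lower in EW8 and higher in TC71 (1.60% of all genes). Across the 74 genes the changes of the lines, which share no libraries, correlated at 0.46 by Pearson's r and 0.43 by Spearman's rho. The same measures over all 16515 genes were 0.70 and 0.63. Points in these correlations share libraries within a line and are not independent.

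**Figure D3:**
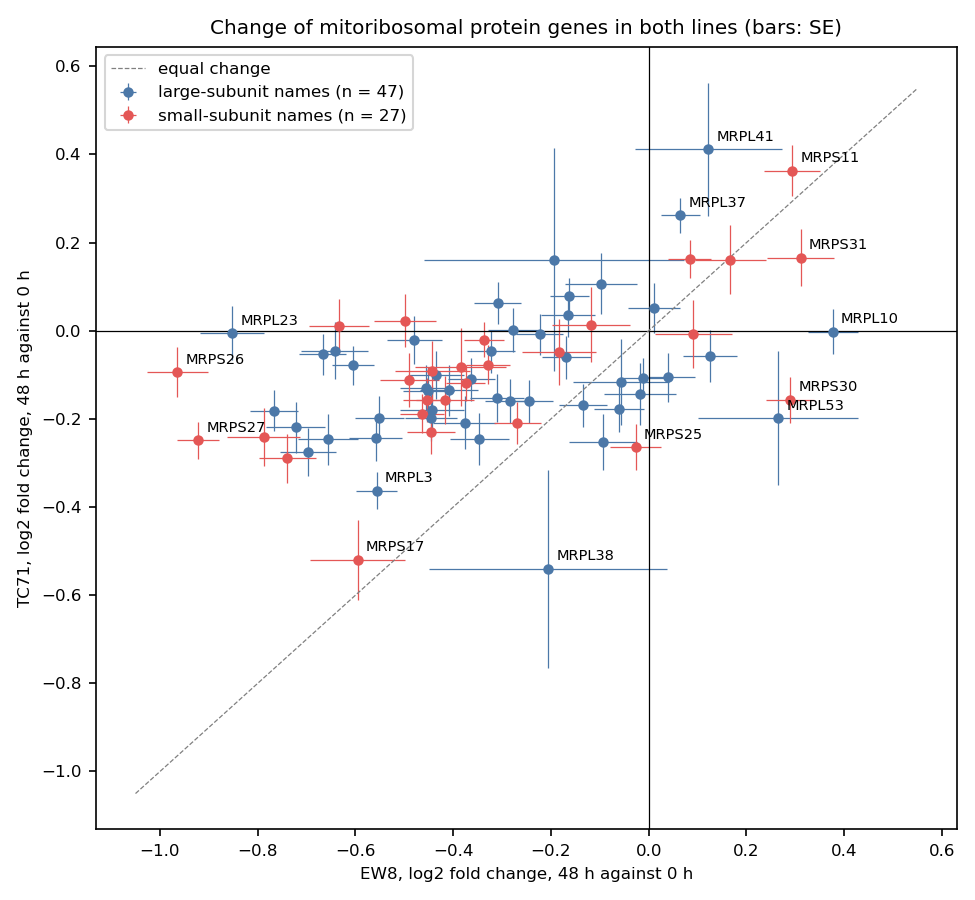
Log2 fold change of each of the 74 tested genes in EW8 (horizontal) and TC71 (vertical) with SE bars, blue for large-subunit names (47) and red for small-subunit names (27); the dashed line marks equal change. Most points lie to the left of 0 and above the dashed line, so the fall was deeper in EW8, while MRPS30 lies right of 0 on the horizontal axis and below 0 on the vertical one.

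The difference between the lines was tested as the interaction of line and time. The change in EW8 was more negative, or less positive, than in TC71 for 41 of 74 genes and more positive, or less negative, for 3, at an adjusted p below 0.05. Over all genes tested, 22.4% differed in the first direction and 25.7% in the second. The median difference was −0.25 on the log2 scale, against 0.04 over all genes. With total counts alone the members' counts were 35 and 9, and the shares of all genes were not counted on that scale.

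The largest tests of this kind were those of MRPS27 (difference of log2 fold changes −0.67 ± 0.06, adjusted p = 3.7e-11), MRPS26 (−0.87 ± 0.08, adjusted p = 2.3e-10), MRPL23 (−0.85 ± 0.09, adjusted p = 1.5e-09), MRPL51 (−0.61 ± 0.07, adjusted p = 2.7e-09) and MRPL24 (−0.59 ± 0.07, adjusted p = 7.9e-09). In TC71, MRPS26 was at 60.1, 61.4 and 57.5 CPM at 0 h and 57.7, 50.1 and 59.7 at 48 h, groups that overlap (adjusted p = 0.19). MRPL23 was there at 34.6, 36.5 and 34.2 CPM and then at 35.3, 32.5 and 36.9 (log2 fold change 0.00 ± 0.06, adjusted p = 0.96). MRPL51, a large-subunit protein found only in mitochondria, went from 78.4, 80.2 and 79.1 to 48.7, 51.8 and 49.1 CPM in EW8. Its TC71 libraries, at 72.6, 69.1 and 73.3 and then 67.4, 70.1 and 69.8 CPM, overlap.

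The 3 genes in the other direction were MRPS30, MRPL10 and MRPS25. MRPS30 was the only member called in opposite directions, since its TC71 libraries went from 42.6, 42.2 and 42.9 CPM to 36.8, 37.97 and 39.7 (log2 fold change −0.16 ± 0.05, adjusted p = 0.015). The difference between the lines was 0.45 ± 0.07 (adjusted p = 3.1e-06). The TC71 call was lost with total counts alone (adjusted p = 0.081) and without replicate 1 of TC71 at 48 h (adjusted p = 0.073). PTCD3, a mitoribosomal subunit with another symbol, was also called higher in EW8 and lower in TC71 (difference 0.45 ± 0.06, adjusted p = 5.7e-08). MRPL10 did not change detectably in TC71, at 83.2, 90.0 and 79.4 CPM and then 83.2, 80.9 and 87.7, and the difference was 0.38 ± 0.07 (adjusted p = 4.2e-05). For MRPS25 the difference was 0.24 ± 0.07 (adjusted p = 0.0083), and it was lost without replicate 3 of TC71 at 0 h (adjusted p = 0.060).

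At 0 h the lines already differed. Of 74 genes, 48 were higher in EW8 than in TC71 and 7 were lower, with a median log2 difference of 0.20. Over all genes tested, 32.8% were higher and 32.9% lower, with a median of −0.01. This comparison uses the same EW8 and TC71 0 h libraries as the responses above, so the 2 sets of values are not independent. It also leans on the scaling: with total counts alone, which moved the median of all genes to −0.14, 31 were higher and 14 lower, with a median of 0.07. The shares of all genes given for 0 h are those with TMM.

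Genes higher in EW8 at 0 h included MRPL3 (log2 difference 0.71 ± 0.04, adjusted p = 1.1e-16), MRPL18 (0.71 ± 0.04, adjusted p = 3.0e-16), MRPS36 (0.71 ± 0.08, adjusted p = 2.7e-09), MRPS18A (0.67 ± 0.08, adjusted p = 2.0e-09) and MRPS30 (0.66 ± 0.05, adjusted p = 1.5e-13). The lowest MRPL18 library of EW8 (144 CPM) was far above the highest of TC71 (92.5 CPM). The genes lower in EW8 at 0 h were led by MRPL57 (−0.53 ± 0.05, adjusted p = 7.7e-11), MRPL43 (−0.41 ± 0.06, adjusted p = 2.8e-07), MRPL1 (−0.35 ± 0.07, adjusted p = 2.1e-05), MRPL15 (−0.24 ± 0.05, adjusted p = 5.4e-05) and MRPS31 (−0.22 ± 0.07, adjusted p = 0.0051). MRPL57, a small large-subunit protein found only in mitochondria, was at 64.9 to 70.1 CPM in EW8 and 94.8 to 101 in TC71.

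A comparison of the lines at 48 h was added after the values had been seen. It gave 26 genes higher and 26 lower in EW8, with a median log2 difference of −0.01. Over all genes tested, 37.3% were higher and 35.4% lower. MRPS30 was the only member past a fold of 2 in any of the comparisons, at a log2 difference of 1.10 ± 0.05 (adjusted p = 5.8e-20). Its EW8 libraries at 48 h (79.2 to 83.8 CPM) lay above all other libraries, and its TC71 libraries at 48 h (36.8 to 39.7 CPM) below all others.

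Summed over the family, the mitoribosomal protein transcripts made up 5672 ± 150 CPM in EW8 at 0 h (SD, n = 3) and 4609 ± 36.3 at 48 h, a change of −18.7%. In TC71 the sum was 4771 ± 36.6 CPM at 0 h and 4502 ± 99.1 at 48 h, a change of −5.66%. On the scale of total counts alone these changes were −11.4% and −2.29%. The EW8 sum differed from that of TC71 by 18.9% at 0 h and 2.39% at 48 h with TMM, and by 8.42% and −1.72% with total counts alone. The ratio of the summed large-subunit names to the small-subunit names, which does not depend on the scaling, was 1.79 ± 0.014 and 1.87 ± 0.012 in EW8 at 0 h and 48 h. All 3 EW8 libraries at 48 h (1.86 to 1.88) lay above those at 0 h (1.78 to 1.81). In TC71 the ratios, 1.83 ± 0.015 and 1.84 ± 0.028, overlap.

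**Figure D4:**
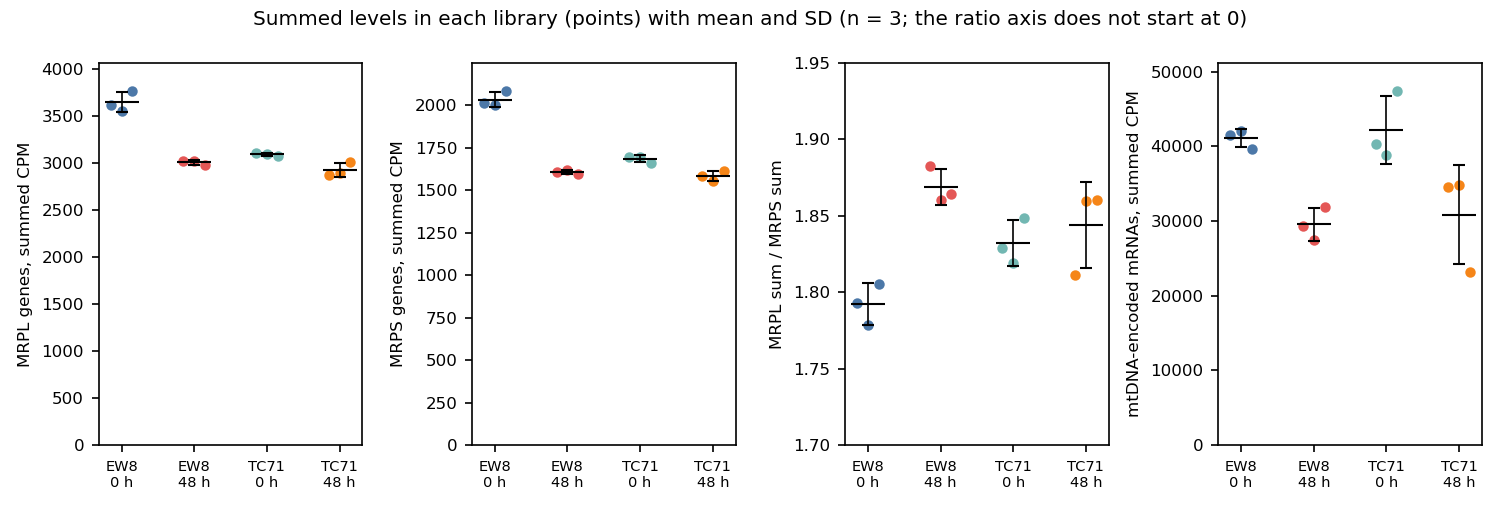
Summed CPM of the MRPL genes, of the MRPS genes, the ratio of these sums, and the summed CPM of the mRNAs encoded in mitochondrial DNA, with points for libraries and bars for the mean and SD of 3 replicates. Both subunit sums drop from 0 h to 48 h in EW8, the ratio rises from 1.79 to 1.87 there, and the third TC71 48 h library stands below the others for the mitochondrial mRNAs.

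The 3 MRPS18 paralogs derive from the same bacterial protein and are thought to occupy different places in the ribosome. MRPS18B was the most abundant per length (82.4 CPM per kilobase), with MRPS18A at 16.4 and MRPS18C at 9.80. MRPS18B was at 115, 117 and 121 CPM in EW8 at 0 h and 119, 128 and 127 at 48 h (log2 fold change 0.08 ± 0.04, adjusted p = 0.089), and in TC71 it rose from 101, 104 and 104 CPM to 114, 113 and 119 (0.16 ± 0.04, adjusted p = 0.0028). MRPS18C was called in neither line (0.09 ± 0.08 in EW8 and −0.01 ± 0.08 in TC71). With total counts alone MRPS18B (0.21, adjusted p = 4.6e-05) and MRPS18C (0.22, adjusted p = 0.014) were called higher in EW8, and MRPS18A (0.21, adjusted p = 0.030) in TC71. With TMM, MRPS18B was also called higher in EW8 without replicate 1 of EW8 at 48 h (0.12, adjusted p = 0.029), and MRPS18A in TC71 without replicate 2 of TC71 at 0 h (0.25, adjusted p = 0.016). None of the paralogs was called lower in either line under the main scaling, and none differed between the lines in its change (adjusted p of 0.98, 0.31 and 0.49 for A, B and C).

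Some members cannot be measured well from such counts. In GENCODE release 44, 17 of the 75 genes share exon sequence with another gene on the same strand, 9 of them over more than 20% of their exon bases, and 30 share some with a gene on the other strand. How the authors' counting treated such reads is not given in the sources used here. MRPS24 shares 23.2% with the readthrough gene URGCP-MRPS24 and was not tested: it had 10, 7 and 13 counts in EW8 at 0 h, 4, 4 and 3 at 48 h, 4, 9 and 9 in TC71 at 0 h and 2, 6 and 9 at 48 h. MRPL53 (72.8% shared with CCDC142), MRPL12 (69.5% with another annotated gene) and MRPL38 (41.1%) were among the genes with the largest errors. Their SEs in EW8 were 0.16, 0.27 and 0.24, against a median of 0.06 over the members, and none was called in either line with edgeR's robust fit and TMM. MRPL38 was called lower in TC71 in DESeq2's Wald test (adjusted p = 0.046), in edgeR's fit that was not robust (adjusted p = 0.027), and without replicate 3 of EW8 or replicate 2 of TC71 at 48 h (adjusted p = 0.016 and 0.0038). MRPL53 was called higher in EW8 with total counts alone (adjusted p = 0.033). Without the same-strand sharers, a count added after the values were seen, 42 of 58 genes were lower and 6 higher in EW8, and 24 and 5 in TC71.

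Mitoribosomal protein genes often start close to another gene on the opposite strand. Of the 74 tested, 29 (39.2%) had such a neighbour within 1000 bases, against 26.0% of 12850 protein-coding genes tested. For 25 members the neighbour was tested too, in 24 distinct pairs since MRPL46 and MRPS11 are each other's neighbour. Of the 15 of these members that were lower in EW8, 6 had a partner that was also lower and 6 a partner that was higher, beside 31.6% lower and 37.0% higher of all genes. Of the 9 lower in TC71, 2 had a partner that was also lower and 2 a partner that was higher, beside 19.2% and 22.9%. MRPL46 and MRPS11 start 320 bases apart. MRPS11 rose in both lines, while MRPL46 had log2 fold changes of −0.06 ± 0.10 and −0.12 ± 0.10 and was not called (adjusted p = 0.62 and 0.36). MRPS27 starts 133 bases from PTCD2, whose log2 fold change in EW8 was 0.19 (adjusted p = 0.043). MRPL10 starts 129 bases from LRRC46, whose log2 fold change in EW8 was 1.98 (adjusted p = 2.2e-07). MRPS30 starts 170 bases from MRPS30-DT, which was called in neither line (log2 fold changes 0.52 and −0.66, adjusted p = 0.37 and 0.24). Whether neighbours affect each other's counts was not tested.

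Genes with the YY1 letters in their window, such as MRPS10, MRPS30 and MRPS18A above, had a median log2 fold change of −0.10 in EW8 (12 tested, 5 called lower), against −0.38 for the 53 without them (42 lower). In TC71 the order was the other way, −0.16 (6 lower) against −0.11 (22 lower). For the ETS letters the medians were −0.45 (11 genes) and −0.34 (54) in EW8 and −0.11 and −0.12 in TC71. For CCAAT they were −0.35 (19) and −0.37 (46) in EW8 and −0.11 and −0.12 in TC71. For the E-box they were 0.06 (5 genes, 2 lower) and −0.38 (60) in EW8 and −0.01 and −0.12 in TC71. For the NRF1 letters they were 0.09 (3 genes, 1 lower) and −0.38 (62) in EW8 and −0.05 and −0.12 in TC71. These splits are descriptions and were not tested.

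The rest of the mitochondrial gene expression machinery was followed in 8 lists. Pooled, 61 of 123 genes were lower and 28 higher in EW8, and 46 lower and 8 higher in TC71 (15 higher with total counts alone), beside the shares of all genes given above. The median log2 fold changes of the pooled lists were −0.15 and −0.11.

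The list of subunits with other symbols had 6 tested genes, MTRES1 among them. Of these, 3 were lower and 1 higher in EW8 (median −0.26), and 2 lower in TC71 (median −0.13). The gene called higher, PTCD3, had log2 fold changes of 0.26 ± 0.04 (SE, adjusted p = 1.0e-06) in EW8 and −0.19 ± 0.04 (adjusted p = 0.00022) in TC71. CHCHD1, a small-subunit protein, fell from 38.6 ± 1.03 to 22.7 ± 0.66 CPM in EW8 (SD, n = 3; log2 fold change −0.77, adjusted p = 1.1e-13) and by 0.28 on the log2 scale in TC71 (adjusted p = 5.3e-05). GADD45GIP1, a large-subunit protein at the tunnel exit, fell in EW8 (−0.44, adjusted p = 0.00012). MTRES1, listed with them although it is known as a rescue factor of stalled ribosomes and mitochondrial transcription, also fell there (−0.30, adjusted p = 0.0014).

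Mitochondrial translation factors showed no common direction in EW8: 4 of 14 were lower and 3 higher (median 0.01), and in TC71 3 were lower (median −0.04). The sign of either median depended on the scaling, and that in EW8 also on single libraries. MTIF3, an initiation factor, fell from 13.9 ± 0.37 to 5.79 ± 0.50 CPM in EW8 (log2 fold change −1.26 ± 0.10, adjusted p = 5.0e-13). MTRF1L, a release factor, rose there from 45.2 ± 1.93 to 81.3 ± 3.66 CPM (0.84 ± 0.06, adjusted p = 4.2e-15). TUFM, the elongation factor that delivers charged tRNAs, fell from 337 ± 19.4 to 229 ± 11.6 CPM (−0.56 ± 0.04, adjusted p = 1.9e-13). None of the 3 was called in TC71, and for each the change differed between the lines (adjusted p of 6.0e-09, 2.0e-09 and 1.7e-07).

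Of 30 genes of ribosome assembly and rRNA maturation, 13 were lower and 8 higher in EW8 (median −0.09), and 9 and 4 in TC71 (median −0.05), both medians being above 0 when libraries were scaled by total counts alone. C1QBP, a matrix protein that binds RNA, fell from 263 ± 12.3 to 136 ± 4.63 CPM in EW8 (−0.96 ± 0.04, adjusted p = 3.8e-20). MALSU1, an assembly factor that keeps the subunits apart, fell by 0.99 on the log2 scale (adjusted p = 1.2e-12), and MPV17L2 by 0.66 (adjusted p = 8.2e-11). Of 20 aminoacyl-tRNA synthetases and related enzymes, 12 were lower and 5 higher in EW8 (median −0.26) and 7 and 1 in TC71 (median −0.12). WARS2 was at −0.84, GATB at −0.73 and EARS2 at −0.67 in EW8 (adjusted p of 1.0e-11, 9.4e-12 and 1.3e-13).

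Of 12 genes that copy and transcribe mitochondrial DNA, 7 were lower and 3 higher in EW8 (median −0.23) and 5 and 2 in TC71 (median −0.14). POLRMT, the mitochondrial RNA polymerase, fell from 234 ± 16.9 to 102 ± 7.82 CPM in EW8 (log2 fold change −1.20 ± 0.09, adjusted p = 1.0e-07) and was at 134 ± 9.69 and 126 ± 14.0 in TC71 (adjusted p = 0.48). SSBP1, which coats single-stranded mitochondrial DNA, fell in both lines (−0.64 and −0.30, adjusted p = 7.0e-14 and 4.3e-06). POLG2, the accessory subunit of the mitochondrial DNA polymerase, did too (−0.31 and −0.50, adjusted p = 0.00045 and 5.5e-07).

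**Figure D5:**
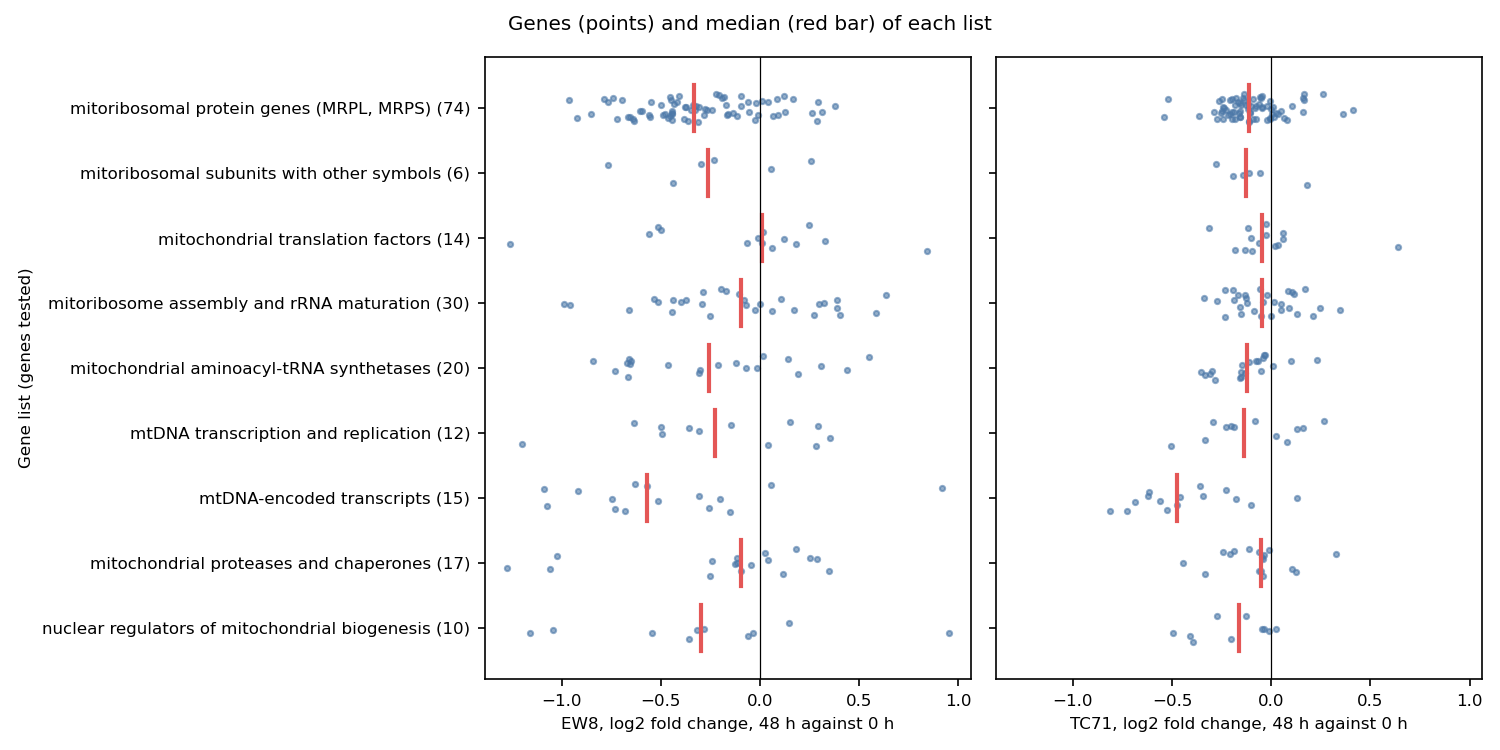
Log2 fold changes at 48 h against 0 h of the genes (points) in each list, with the number tested in brackets, in EW8 and TC71; the red bar is the median. The MRPL and MRPS genes have medians of −0.33 and −0.11, the translation factors lie around 0, and the transcripts of mitochondrial DNA have medians of −0.57 and −0.48.

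Among mitochondrial proteases and chaperones, 8 of 17 were lower and 5 higher in EW8 (median −0.10) and 5 and 1 in TC71 (median −0.05), and the EW8 median was above 0 with total counts alone. OMA1, a stress-activated protease, had a log2 fold change of −1.28 ± 0.14 in EW8 (adjusted p = 3.8e-10) and the chaperonin genes HSPE1 and HSPD1 −1.06 ± 0.06 and −1.02 ± 0.04 (adjusted p = 7.9e-18 and 1.6e-22). All 3 were also lower in TC71, at −0.45, −0.33 and −0.21 (adjusted p = 0.00035, 5.3e-06 and 2.5e-05). Of 10 nuclear regulators of mitochondrial biogenesis, 6 were lower and 2 higher in EW8 (median −0.30), and 6 were lower in TC71 (median −0.16). NRF1, which activates many mitochondrial genes, fell from 38.9 ± 1.98 to 18.9 ± 0.17 CPM in EW8 and from 30.8 ± 0.45 to 21.8 ± 1.01 in TC71 (adjusted p = 2.3e-16 and 3.4e-08). The coactivator PPARGC1B fell by 1.16 and 0.41 on the log2 scale (adjusted p = 5.3e-18 and 5.5e-06). MYC went from 422 ± 12.6 to 817 ± 21.4 CPM in EW8 (adjusted p = 6.3e-21) and was at 467 ± 12.6 and 452 ± 25.6 CPM in TC71 (adjusted p = 0.36). These are RNA values: the study's immunoblots had less c-Myc protein in both lines at 48 h, and it reported no decrease of the mRNA. What these regulators did to the mitoribosomal protein genes was not tested.

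Of 15 transcripts of mitochondrial DNA, 13 mRNAs and 2 ribosomal RNAs, 9 were called lower and 1 higher in EW8 and 9 lower in TC71, with median log2 fold changes of −0.57 in EW8 and −0.48 in TC71. The 13 mRNAs summed to 41099 ± 1225 CPM in EW8 at 0 h and 29567 ± 2186 at 48 h, and to 42200 ± 4553 and 30852 ± 6644 in TC71. The TC71 value leans on replicate 3 at 48 h, which had 23181 CPM against 34571 and 34803 in the other libraries of its group, and without it the median of the list was −0.37. MT-ATP6 was at −1.07 ± 0.16 in EW8 and −0.81 ± 0.16 in TC71 (adjusted p = 0.00032 and 0.0037), and MT-ATP8, whose gene overlaps it, at −1.09 and −0.73. MT-CO1 was called in neither line (0.06 ± 0.18 and −0.10 ± 0.18). The large ribosomal RNA MT-RNR2 rose in EW8 (0.92 ± 0.13, adjusted p = 0.00021), where the small one, MT-RNR1, was not called (−0.15 ± 0.12, adjusted p = 0.28). The libraries were made from poly(A) RNA, so for these mRNAs and ribosomal RNAs a change in level and a change in adenylation cannot be told apart.

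For scale, 2 other large families of nuclear genes were read from the same fit. Cytosolic ribosomal protein genes were lower in 80 of 83 cases in EW8 (median −0.57) and 72 of 83 in TC71 (median −0.24), and none was higher. Nuclear-encoded subunits of oxidative phosphorylation were lower in 58 of 76 and 34 of 76 (medians −0.36 and −0.11), with 1 and 2 higher. The mitoribosomal medians of −0.33 and −0.11 lay near those of the oxidative phosphorylation genes. The families were not tested against each other.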

How the data were processed

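RNA of 12 libraries (EW8 and TC71, 0 h and 48 h, 3 replicates each) had been prepared as poly(A) stranded libraries, sequenced with paired-end reads, checked with FastQC and aligned to hg38 with STAR, per the labels and the study's methods. The authors deposited raw counts per gene, with no normalization. The counting tool, its strand setting and its annotation are not given in the sources used here. The smallest sum of a gene over all libraries was 21, so low genes had already been removed. Groups came from the labels.

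filterByExpr, given the 4 groups, a count of 10 and a total of 15 as its minimums, left 16515 genes. These were fitted with edgeR 4.0.16 in R 4.3.3 (TMM factors, robust quasi-likelihood, all 12 libraries, no replicate block). Each line was compared at 48 h against 0 h, then the difference of these changes, and the lines at 0 h and, added later, at 48 h. P-values were Benjamini-Hochberg adjusted over all genes tested, and the call was an adjusted p below 0.05. SEs belong to the fitted log2 fold change, and the common biological coefficient of variation was 4.17%. The fit was also run on simulated counts with the same spread for all genes and few changed genes, which does not check the scaling.

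CPM used TMM-scaled totals. Lengths, overlaps and neighbours came from GENCODE release 44. Sums, levels per length, promoter letters and correlations are descriptions without a test. The members and lists were chosen with earlier results of these data known, and the split by bacterial counterpart was made after the values were seen. Named genes were, per contrast, the 5 largest called changes in each direction (for the difference between lines, the 5 smallest p), any past a fold of 2, the 5 highest and lowest levels per length, the MRPS18 paralogs, untested members, RRM1 and the 3 largest called changes of each other list. MRPL12, MRPL21, MRPL22, MRPL46, MRPS10, PTCD3, MT-CO1, MT-RNR1 and the neighbours of members were named after their values were seen. The same holds for further values of genes named under another contrast.

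Alternatives were DESeq2 (1.42.0) size factors and Wald test, total counts alone, upper-quartile factors, other filters, a fit that was not robust, other thresholds, each line alone, the replicate number as a block and each library left out in turn. Python 3.11.15 and matplotlib 3.10.9 were used for summaries and figures. The deposited table held no other columns of samples.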

Additional observations from a re-analysis of the deposited data

Results flagged for a closer look

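The response to 48 h without doxycycline differed between the lines, in a test of the interaction of line and time, for 44 of the 74 mitoribosomal protein genes: 41 changed more negatively in EW8 and 3 more positively. MRPS30 was called higher in EW8 and lower in TC71, with a difference of 0.45 on the log2 scale (adjusted p = 3.1e-06 in edgeR's quasi-likelihood test). Groups of 3 libraries were not searched for single outlying libraries.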

How the results depend on the processing

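MRPS24 had too few counts to be tested, and 72 of 75 genes had at least 100 counts in every library. With total counts alone, members called higher numbered 13 in EW8, 8 in TC71 and 9 for the difference, with medians of −0.21, −0.0603 and −0.18. At 0 h they were 31 higher and 14 lower with a median of 0.0660, and list genes called higher in TC71 numbered 15. Summed CPM was then 5252 and 4652 in EW8 and 4844 and 4733 in TC71 at 0 h and 48 h. With upper-quartile factors the EW8 median was −0.37, TC71 had 3 members higher, and at 0 h 12 were lower with a median of 0.12. An adjusted p below 0.01 left 3 higher in TC71. A fold above 2 left 0 in either direction in each of the 4 comparisons. The longest transcript gave a median level of 29.3 CPM per kilobase. Shares of all genes called were not counted under the other scalings or with a library left out. The members' medians in the 4 comparisons kept their direction under all of these settings. With total counts alone the list medians rose above 0 for assembly (0.0306 in EW8 and 0.00348 in TC71), proteases and chaperones in EW8 (0.0291) and translation factors in TC71 (0.00562). That of translation factors in EW8 fell below 0 with upper-quartile factors (−0.0271), with each line fitted alone (−0.0156), and without any 1 EW8 0 h library or replicate 2 of EW8 at 48 h (−0.0442 to −0.0022). Leaving out 1 library gave 3 to 5 members higher and 26 to 34 lower in TC71 (median −0.13 to −0.09), 4 to 5 higher and 49 to 52 lower in EW8 (−0.38 to −0.33), 2 to 4 and 40 to 45 for the difference (−0.28 to −0.23), and 42 to 48 and 6 to 9 at 0 h (0.17 to 0.24). Named members other than MRPL12, which was left out here, turned no called direction in any setting. They lost a call in 93 of 2952 checks and gained one in 43. Replicate numbers do not pair the libraries: correlations of same-numbered libraries ran from −0.14 to 0.11, 1 of 18 was over 0.1, and 4 of 12 libraries matched their own number best. With the replicate block 4 members were higher and 51 lower in EW8, and 4 and 30 in TC71, MRPS18A, MRPL22 (EW8) and MRPL41 (TC71) not being called (adjusted p = 0.057, 0.057 and 0.066). The cause of these shifts was not tested.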
